A study of Mus musculus with 4 samples.

Results

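The semaphorins, plexins and neuropilins were described as 1 ligand and receptor system in cells of the mouse aorta. All genes whose symbol begins with Sema and a number or with Plxn were taken, together with Nrp1 and Nrp2, among the gene identifiers that all 4 libraries share. The rule found 34 of 27734 shared genes, which are 20 semaphorins, 9 plexins, 3 antisense transcripts of Plxna4 and 2 neuropilins. The data are droplet single-cell libraries read from the 5′ end, in which every captured transcript counts once as a unique molecular identifier (UMI), whatever its length. The cKO mice carried CNC-SMC-Cre, floxed Smad4 on both alleles (Smad4flox/flox) and the R26-tdT reporter. Control mice carried CNC-SMC-Cre and R26-tdT without the floxed alleles, so all groups share the driver and the reporter. Smad4 is the common mediator of transforming growth factor-beta and bone morphogenetic protein signals. The mice were 16 to 20 weeks old, and the aortic arch or the descending thoracic aorta was digested with collagenase. Each of the 4 groups (cKO arch, control arch, cKO descending, control descending) has 1 library, and the sources used here give neither the number of animals behind it nor the cells that the driver recombines.

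Semaphorins are secreted or membrane-bound guidance proteins. Class 3 members are secreted, and most of them bind a neuropilin, which carries the ligand to a class A plexin that signals inside the cell. Sema3e is the known exception, since it binds Plxnd1 without a neuropilin. Class 4 to 7 members are mostly membrane proteins that bind plexins directly, and the neuropilins also act as co-receptors of vascular endothelial growth factors. Plexins act on small GTPases, integrins and the cytoskeleton, and in vessels the system is known for guiding nerves, endothelial sprouts and the neural crest cells that populate the outflow tract.

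Of the kept cells, 1153, 3896, 1527 and 1312 passed the smooth muscle gate. These and all later sets of 4 values are in the order of the groups given above. The gate asks for at least 3 of 8 contractile markers and 30 panel UMIs per 10000, so a cell with low contractile expression falls outside it. The libraries differ in depth, with medians from 5736 to 10226.5 UMIs per kept cell, and any pair of libraries shares between 66 and 99 cell barcodes. They also differ in loss, with 5842 of 8634, 8644 of 9283, 5901 of 6813 and 5206 of 6351 barcodes kept. The mitochondrial limit was failed by 1723, 86, 331 and 362 barcodes and the gene limit by 2311, 594, 665 and 943. The cKO arch library, which lost the most, enters every arch genotype ratio and every cKO region ratio. The part of this loss in those ratios was not tested. UMIs were summed over the cells of a class and divided by all UMIs of the class, and the level is given in CPM, the usual scaled unit of count data. With 1 library in each group no test between groups was possible. Ratios are given on the log2 scale with exact 95% intervals that cover counting error only, and a gene is counted as higher or lower when its UMIs in the pair of libraries come to 50 or more and it differs at least 2-fold. Y-linked transcripts were counted in the control arch library alone, with 1373 UMIs of Ddx3y against 0 in each of the others, and the same library also held Xist UMIs. Sex or animal differences between libraries therefore cannot be told apart from genotype or region, and values for both parts of the control arch cells are given below. Smad4 itself was at 65.8, 76.9, 90.6 and 85.4 CPM over all kept cells, but where these reads lie relative to the floxed part is not known, so its level does not check the labels. A lower summed level can mean fewer cells with the transcript or fewer transcripts in each, and shares of cells are given where this was counted.

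Of the ligands that reached 20 CPM in smooth muscle-like cells, Sema3a, Sema3e and Sema3c were those that differed at least 2-fold between libraries. They lie on the plus strand of chromosome 5 (GENCODE M21, GRCm38) together with Sema3d, which differed less. Sema3d spans 12383385 to 12588948, Sema3a 13125414 to 13602565, Sema3e 14025276 to 14256689 and Sema3c 17574281 to 17730268. No protein-coding gene lies between Sema3d and Sema3a, 1 lies between Sema3a and Sema3e, and 16 lie between Sema3e and Sema3c. The sequences before their RefSeq starts are shown to set these 3 ligands beside Sema3d. Each sequence holds the 250 bases before the RefSeq start (GRCm38.p6, plus strand), at chr5:13396534-13396783 for Sema3a, chr5:14025026-14025275 for Sema3e, chr5:17574566-17574815 for Sema3c and chr5:12382916-12383165 for Sema3d. Capitals mark a Smad box (CAGAC, or GTCTG for the other strand) or a GC box (GGGCGG, or CCGCCC for the other strand).
Sema3a: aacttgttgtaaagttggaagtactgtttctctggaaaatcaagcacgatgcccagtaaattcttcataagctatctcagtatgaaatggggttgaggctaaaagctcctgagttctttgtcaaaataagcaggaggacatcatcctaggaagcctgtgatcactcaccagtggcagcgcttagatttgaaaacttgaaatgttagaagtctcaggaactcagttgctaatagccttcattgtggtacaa
Sema3e: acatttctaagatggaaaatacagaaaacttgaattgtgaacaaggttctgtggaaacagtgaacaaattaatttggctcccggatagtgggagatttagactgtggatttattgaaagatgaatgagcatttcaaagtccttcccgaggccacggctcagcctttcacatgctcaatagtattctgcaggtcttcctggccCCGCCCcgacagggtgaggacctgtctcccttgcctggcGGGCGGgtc
Sema3c: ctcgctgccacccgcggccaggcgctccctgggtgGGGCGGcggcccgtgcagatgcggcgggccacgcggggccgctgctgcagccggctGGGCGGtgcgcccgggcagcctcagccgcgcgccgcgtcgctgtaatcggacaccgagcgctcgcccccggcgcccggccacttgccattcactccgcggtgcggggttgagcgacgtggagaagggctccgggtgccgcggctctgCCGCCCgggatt
Sema3d: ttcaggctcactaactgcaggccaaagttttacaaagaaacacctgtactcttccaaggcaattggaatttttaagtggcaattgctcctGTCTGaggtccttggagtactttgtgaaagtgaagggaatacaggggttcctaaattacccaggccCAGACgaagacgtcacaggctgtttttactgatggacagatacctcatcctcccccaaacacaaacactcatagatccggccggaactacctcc
The window of Sema3d holds 2 Smad boxes, at bases 91 to 95 and 157 to 161, and no GC box. Sema3e has 2 GC boxes, Sema3c has 3, and neither holds a Smad box. None of these letters occurs in the window of Sema3a, whose RefSeq start lies 271.4 kb inside the gene span given above, so that window is not the sequence before the gene's outermost start. The RefSeq starts of the other 3 lie within 0.535 kb of their gene starts. Of 32851 mouse promoter windows of 250 bases, 42.2% hold the Smad box and 32.7% the GC box, and the boxes overlap each other in 56 windows. RefSeq windows were found for 26 of the 34 genes, 37 windows in all because some genes have several. Of these windows 19 (51.4%) hold a Smad box and 27 (73.0%) a GC box. A match says only that these letters are in the window.

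Sema3a, a secreted repellent of axons and of migrating cells, was counted mainly in the descending aorta in smooth muscle-like cells. Its level was 2.54, 1.38, 25.8 and 25.1 CPM, from 34, 80, 461 and 431 UMIs. Both descending libraries were far above both arch libraries, and genotype made little difference in the descending aorta. A Sema3a UMI was found in 2.52% and 1.80% of arch cells but in 21.2% and 22.6% of descending cells. Thinned to 3000 UMIs per cell, these shares were 0.771, 0.404, 7.33 and 7.16%, and no T cell-like cell, a class that should lack the gene, had a Sema3a UMI in any library. T cell-like cells were shallower, as given for Sema3e below. B cell-like cells had 1 Sema3a UMI in each of the cKO arch, cKO descending and control descending libraries. Those are 4.18, 1.67 and 1.30 CPM, beside 2.54 and 1.38 CPM in smooth muscle-like cells of the arch. The arch level divided by the descending level gave a log2 ratio of -4.18 (-4.55 to -3.84) in control mice and -3.32 (-3.89 to -2.84) in cKO mice. Against its own control the cKO library was at 0.90 (0.26 to 1.48) in the arch, where both levels are low, and at 0.04 (-0.15 to 0.23) in the descending aorta.

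Sema3e, the ligand of Plxnd1, was higher in the cKO library of both regions. Its level was 20.7, 3.08, 27.2 and 8.03 CPM, from 277, 179, 486 and 138 UMIs. Both cKO libraries exceeded both control libraries, and their counting intervals do not overlap. The share of cells with a UMI was 15.1, 3.11, 17.6 and 5.72%, or 5.16, 0.844, 6.85 and 1.92% after thinning. In T cell-like cells it was at most 0.515% without thinning, at medians of 3488 to 5209.5 UMIs per cell against 10550 to 13981 in smooth muscle-like cells. The log2 ratio of cKO to control was 2.75 (2.47 to 3.03) in the arch and 1.75 (1.48 to 2.04) in the descending aorta. Between regions Sema3e was lower in the arch, with log2 ratios of -1.38 (-1.71 to -1.05) in control mice and -0.39 (-0.61 to -0.18) in cKO mice.

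**Figure D1:**
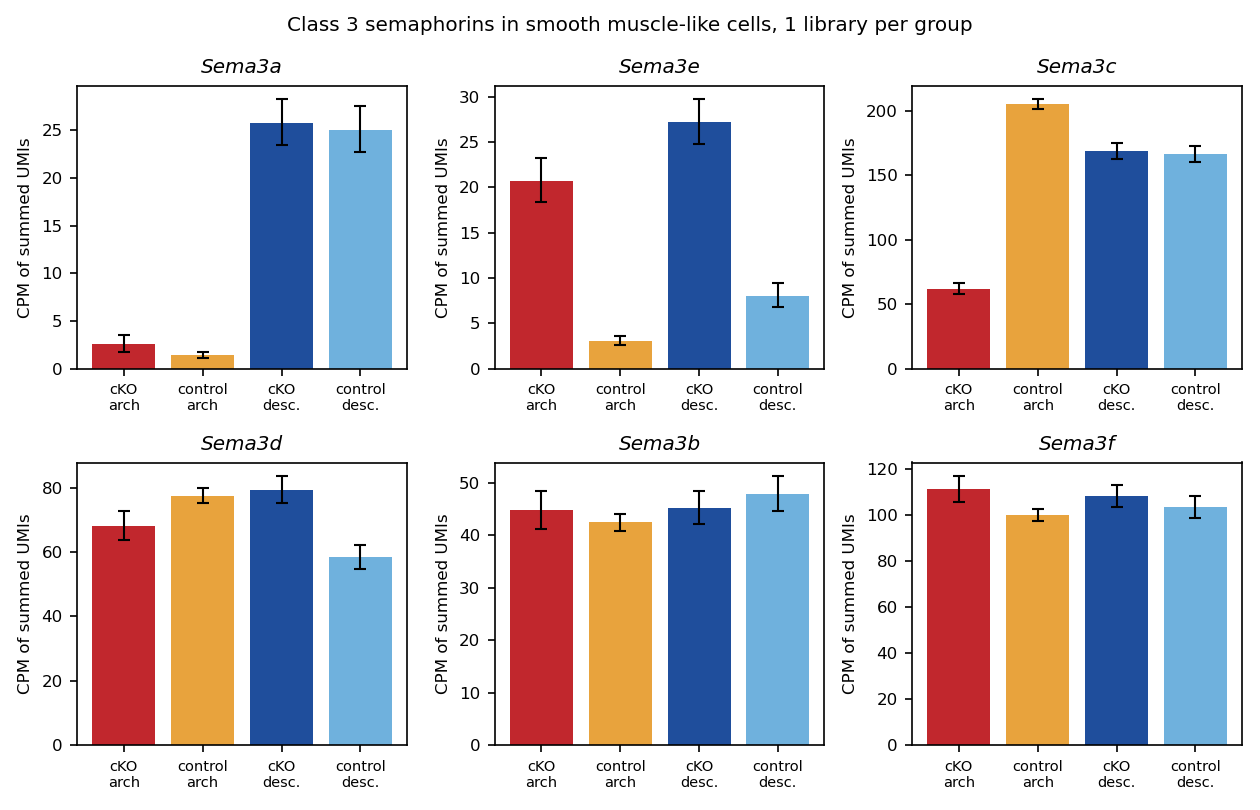
Level in CPM of 6 class 3 semaphorins in smooth muscle-like cells, 1 bar for each library, with exact 95% Poisson intervals that cover counting error only. Sema3a is at 25.8 and 25.1 CPM in the descending libraries and under 3 CPM in the arch, while Sema3e is higher in each cKO library than in its control.

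The control arch library allows part of this to be read within 1 library. Of its 3896 smooth muscle-like cells, 723 had Y-linked but no Xist UMIs, 2687 had Xist but no Y-linked UMIs, 73 had both and 413 neither. Sema3e was at 6.29 CPM in the former and 2.13 CPM in the latter, a log2 ratio of 1.57 (1.10 to 2.03). Of 24 genes of the system with enough UMIs, Sema3e was the 1 past 2-fold higher in the cells with Y-linked UMIs, where 1.22% of all genes were, and Sema4a and Sema4d were the 2 past 2-fold lower, where 2.64% were. The cKO arch level of Sema3e stood above both parts, at 1.71 (1.34 to 2.11) over the cells with Y-linked UMIs and 3.28 (2.93 to 3.64) over those with Xist UMIs. The arch to descending ratio of Sema3e in control mice was -1.91 when taken from the cells with Xist UMIs and -0.35 (-0.78 to 0.07) from those with Y-linked UMIs. Over the class Sema3c differed by 0.02 and Sema3a by -0.34 (-1.37 to 0.49) between the parts. Within single clusters the parts differed more. Sema3c was at 150.7 CPM in 29 cells with Y-linked UMIs and 73.97 CPM in 75 cells with Xist UMIs of cluster 4 (1.03, 0.55 to 1.5), and Sema3a differed by 1.57 (0.12 to 2.76, from 8 and 20 UMIs) in cluster 0. Whether these cells come from different animals was not tested.

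Sema3c, a ligand known for guiding neural crest cells into the outflow tract, was lower in the cKO arch than in any other library. Its level was 61.6, 205, 169 and 166 CPM. The share of cells with a UMI was 37.2, 76.6, 57.8 and 60.4%. The cKO to control ratio was -1.73 (-1.84 to -1.63) in the arch and 0.02 (-0.05 to 0.10) in the descending aorta. The arch to descending ratio was 0.30 (0.24 to 0.36) in control mice and -1.45 (-1.57 to -1.34) in cKO mice.

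The other secreted ligands of these cells varied less. Sema3f, a ligand of Nrp2, was at 111, 99.9, 108 and 104 CPM. Sema3b was at 44.7, 42.4, 45.1 and 47.9 CPM. Sema3d, whose window holds the 2 Smad boxes shown above, was at 68.1, 77.6, 79.4 and 58.4 CPM, with cKO to control ratios of -0.19 (-0.29 to -0.08) in the arch and 0.44 (0.33 to 0.56) in the descending aorta. Sema3g stayed at or under 1.28 CPM. Sema5a, a transmembrane ligand with thrombospondin repeats, was at 74.7, 97.1, 110 and 146 CPM and was lower in cKO, at a ratio of -0.38 (-0.48 to -0.28) in the arch and -0.41 (-0.50 to -0.33) in the descending aorta. Of class 4, Sema4c was at 13.1, 18.6, 17.5 and 15.9 CPM and Sema4b at 4.41, 6.91, 8.33 and 10.4 CPM. No other semaphorin exceeded 8 CPM in smooth muscle-like cells of any library.

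Among the receptors, Nrp1, the shared co-receptor of class 3 semaphorins and vascular endothelial growth factors, was highest in the cKO arch. Its level was 51.1, 25, 28.2 and 37.2 CPM. The cKO to control ratio was 1.03 (0.90 to 1.16) in the arch and -0.40 (-0.57 to -0.23) in the descending aorta. The arch value lies just past 2-fold, and it was 0.98 when each cell had equal weight and 0.9996 when the class was taken from clusters. Nrp2 was low, at 7.10, 4.07, 2.24 and 3.55 CPM. Plxnb2, a receptor of class 4 semaphorins, was at 73.7, 63.0, 70.6 and 74.1 CPM. Plxna2 was at 33, 23.1, 30.5 and 27.9 CPM, and Plxna1 at 20.8, 13.3, 20.7 and 18.7 CPM. Plxna4 was at 18.9, 26.1, 37.4 and 48.3 CPM, lower in both arch libraries and, within each region, lower in cKO. Plxnb1, the receptor of Sema4d, was at 17.0, 20.4, 36.5 and 31.3 CPM. Plxnd1, the receptor of Sema3e, was at 16.9, 12.4, 28.8 and 26.6 CPM, again lower in the arch. Plxna3 did not exceed 2.91 CPM, and Plxnb3, Plxnc1 and the 3 Plxna4 antisense transcripts stayed under 1 CPM. The sources do not state whether counting used the strand, so reads of Plxna4 and of its antisense transcripts may not be told apart.

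Counted over the whole system, 24 of the 34 genes had enough UMIs in the arch pair. In the cKO arch 3 were at least 2-fold higher (Sema3e, Nrp1 and Plxna3), where 3.95% of all 12693 counted genes were. There 4 were at least 2-fold lower (Sema3c, Sema4g, Sema6a and Sema6d), where 8.18% of all genes were, and the last 3 rest on 6 to 12 UMIs in the cKO library. The median log2 ratio was -0.11 for the system and -0.13 for all genes. In the descending pair Sema3e was the 1 gene of 23 past 2-fold, where 0.514% of all genes were higher and 0.851% lower, and the medians were 0.02 and -0.03. Between regions in control mice, 5 of 25 were lower in the arch (Sema3a, Plxna3, Sema5b, Sema3e and Plxnd1) and none higher, where 3.86% and 3.47% of all genes were. In the cells of cluster 0, a group described below, the ratio of Plxnd1 was -0.23 (-0.60 to 0.15) in place of -1.11. In cKO mice 5 of 22 were lower in the arch (Sema3a, Sema6d, Sema3c, Sema6a and Plxnb1), where 7.32% of all genes were. Of these Plxnb1 was at 0.10 (-0.63 to 0.70) in cluster 0 in place of -1.10, from 22 UMIs in 76 cKO arch cells. In cluster 4, which held 63.1% of the class in the cKO arch, it was lower in the arch, at 15.9 against 26.3 CPM. Nrp2 was the 1 gene higher in the arch in cKO mice, by 1.66 (1.12 to 2.24), where 3.55% of all genes were. Counting intervals of the genotype ratio lay on opposite sides of 0 in the 2 regions for 4 of the 22 genes counted in both pairs, and for 6.31% of all 11775 genes counted there. The genotype ratios share no library between regions, but each library enters both a genotype and a region ratio.

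**Figure D2:**
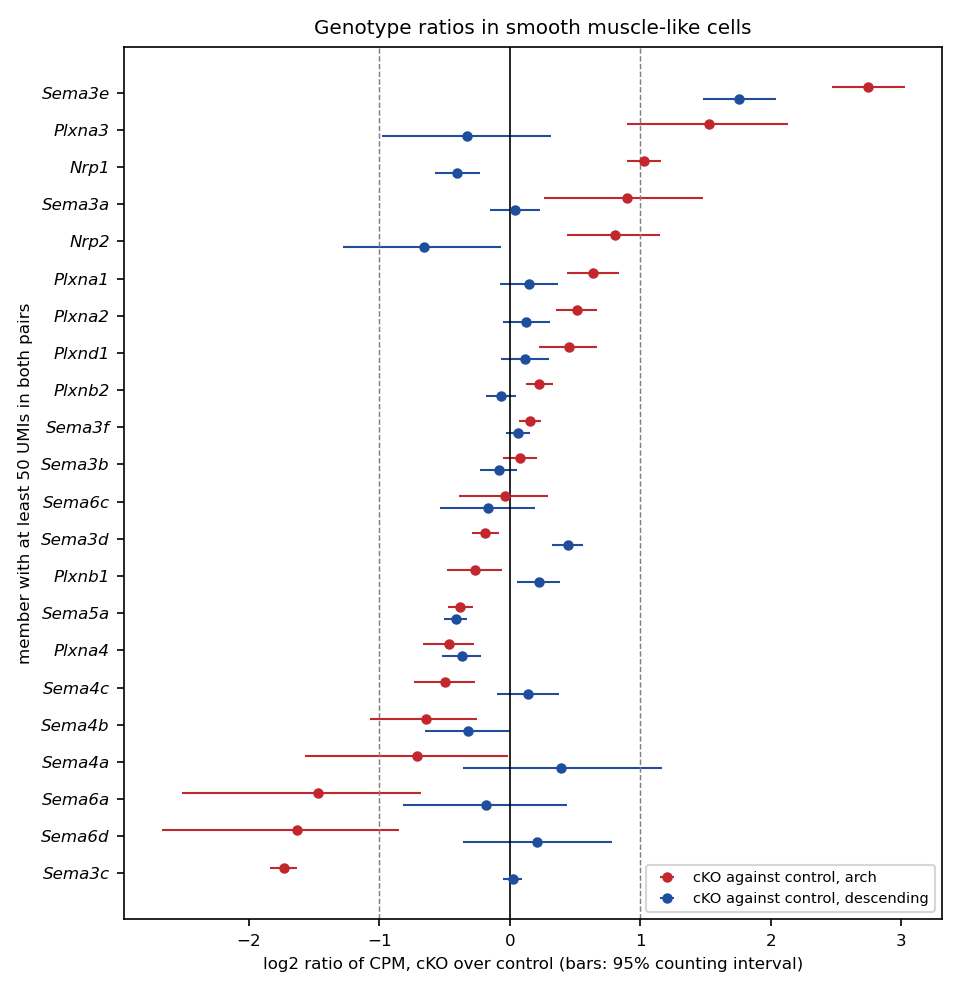
Log2 ratio of CPM, cKO over control, in smooth muscle-like cells for each gene with at least 50 UMIs in both pairs, with 95% counting intervals and dashed lines at 2-fold. Sema3e lies to the right in both regions (2.75 and 1.75), Sema3c to the left in the arch alone (-1.73 against 0.02), and Nrp1 on opposite sides (1.03 and -0.40).

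Smooth muscle-like cells fell into clusters that took very different shares of each library, and the clusters were built without the genes of the system. Cluster 4, led by Tonsl, Sncg and Igfbp2, held 63.1% of the class in cKO arch cells and 3.2% in control arch cells. Cluster 1, led by Tnnt2, Atp1b1 and Hand2, held 41.1% of the control arch and is described for that library alone. Cluster 0, with Hbb-bs and Tcap among its leading genes, held 6.59, 25.1, 49.1 and 47.5% of the 4 libraries. Because different clusters hold most of the class in different libraries, the main genes were also read within clusters that had at least 50 cells.

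Within cluster 0 Sema3a was at 5.95, 2.19, 27.7 and 27.6 CPM, so the regional difference was also present there, with a control ratio of -3.64 (-4.24 to -3.12). In cluster 10, led by the early-response genes Atf3 and Fosb, Sema3a reached 80.1 CPM in cKO and 54.5 CPM in control descending cells against 4.12 CPM in the control arch. Other genes were also higher in cluster 10 than in cluster 0 of the cKO descending library. Sema5a was at 214 against 96.1 CPM, Sema3f at 191 against 107 CPM and Plxnb2 at 120 against 63.0 CPM. In cluster 4 Sema3a was low in every library, at 2.55, 2.82, 8.64 and 7.13 CPM, and its arch cKO to control ratio of -0.25 (-1.57 to 1.61, from 23 and 5 UMIs) did not share the sign of the 0.90 over the class. In cluster 20, led by Nrip2, Olfr558 and S1pr3, 0 or 1 Sema3a UMI was counted in each of 3 libraries.

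Sema3e was at 13.1, 1.48, 23.0 and 5.87 CPM in cluster 0, with cKO to control ratios of 3.17 (1.94 to 4.26, from 11 and 21 UMIs) in the arch and 1.96 (1.54 to 2.42) in the descending aorta. In cluster 10 it was at 78.1 CPM in cKO and 10.3 CPM in control descending cells, a ratio of 2.91 (2.30 to 3.61). In cluster 4 its arch levels were 21.4 and 15.8 CPM, a ratio of 0.42 (-0.14 to 1.07), and its descending levels 34.2 and 16.5 CPM, a ratio of 1.04 (0.55 to 1.57). The arch difference of Sema3e was thus not resolved from counting error within the cluster that holds most cKO arch cells. That cluster had 123 cells in the control arch, and even there it held the highest Sema3e level of that library. In cluster 11, led by Prss12, Msx2 and Prrx2, the arch levels were 13.9 and 1.35 CPM, a ratio of 3.40 (1.89 to 4.75).

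Sema3c was lower in the cKO arch within each shared cluster, but by less than over the whole class. In cluster 0 its arch levels were 78.5 and 154 CPM (-0.96, -1.35 to -0.62). In cluster 4 they were 47.6 and 94.7 CPM (-0.996, -1.25 to -0.73), where the control value spans the 150.7 and 73.97 CPM of the parts described above. In cluster 11 they were 275 and 538 CPM (-0.96, -1.21 to -0.74), which are the highest Sema3c levels of either arch library. Nrp1 showed arch levels of 38.9 and 15.2 CPM in cluster 4 and of 101 and 45.8 CPM in cluster 11. In cluster 0 it was at 26.2 and 16.8 CPM.

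Cluster 20 carried another set of receptors. Plxnd1 was at 136, 119 and 117 CPM in the 3 libraries other than the cKO arch, against 8.3 to 11.7 CPM in cluster 0 over the 4 libraries. Plxnb1 was at 79.2, 109 and 84.8 CPM in cluster 20. Sema3b, Sema3c and Sema3d were each under 14 CPM there. This cluster held 1.9% of the class in the control arch and 13.3% and 8.5% in the descending libraries. The lower Plxnd1 level of the arch thus moves in part with the share of cluster 20. Within cluster 4 Plxnd1 was also lower in the arch, at 14.09 against 34.03 CPM in control and 15.86 against 27.64 CPM in cKO libraries. In cluster 10 it was at 16.80 CPM in the control arch and 31.58 CPM in the control descending library. In cluster 0 the control levels were closer, at 10.02 and 11.73 CPM, and in cluster 20 the control arch was not lower.

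**Figure D3:**
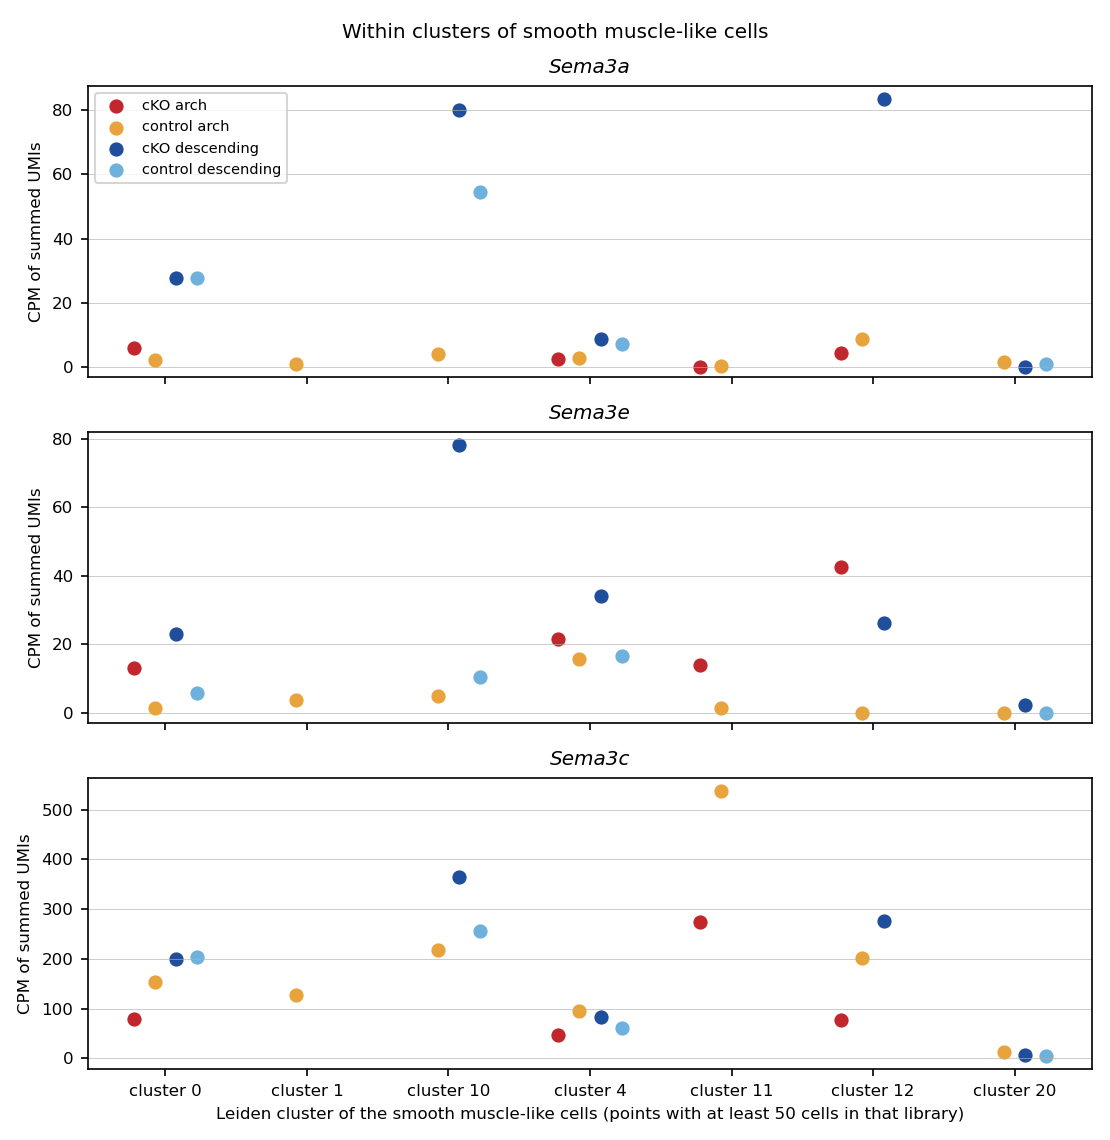
CPM of Sema3a, Sema3e and Sema3c in smooth muscle-like cells by cluster, 1 point for each library with at least 50 cells. Sema3a is at 27.7 and 27.6 CPM in cluster 0 of the descending libraries and at 5.95 and 2.19 CPM in the arch, and Sema3c is lower in the cKO arch than in the control arch in clusters 0, 4, 11 and 12.

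Sema3a and Sema3e were also read in the same cells. In the cKO descending library 25.3% of cells with a Sema3a UMI had a Sema3e UMI, against 15.5% of the others. In the control descending library these shares were 8.11% and 5.02%. Cells with a Sema3a UMI were deeper, with medians of 13240 against 10960 UMIs and 16470 against 11830 UMIs, and the part of depth in these shares was not tested.

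Other cell types in the gate were checked by their markers. The modulated panel (Spp1, Tnfrsf11b, Comp, Timp1 and Igfbp2) summed to 1376 CPM in smooth muscle-like cells of the cKO arch and to 87.0, 94.8 and 96.1 CPM in the other libraries, with all 5 markers above 0 in the cKO arch. The leukocyte panel was at 20.5, 6.24, 6.26 and 10.6 CPM and the fibroblast panel at 89.1, 94.6, 35.5 and 54.6 CPM. The part of the modulated panel in the arch ratios was not tested. Of the cells gated as smooth muscle in the 4 libraries, 95, 168, 61 and 65 lay within 5 panel UMIs above the limit, and 104, 118, 49 and 59 others lay as close below it.

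In the cKO arch library a feature named RFP was counted too. Smooth muscle-like cells with at least 16 RFP UMIs (334 cells) were set against those with under 8 (715 cells) in that library. Nrp1 was at 80.5 CPM in the former and 38.1 CPM in the latter, a ratio of 1.08 (0.84 to 1.31). It was the 1 gene of 17 counted that was past 2-fold higher, where 1.4% of all genes were, and none was past 2-fold lower, where 0.929% were. Plxnd1 was higher, at 0.71 (0.30 to 1.12), and Sema3c lower, at -0.72 (-0.98 to -0.47). Sema3e was at 16.9 and 22.5 CPM (-0.40, -0.84 to 0.01). Cells with more RFP were shallower, with a median of 9337.5 against 10675 UMIs.

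The modulated mesenchymal-like class, defined by the modulated panel, had 637 cells in the cKO arch and at most 23 in any other library, so it is a description of that library. Nrp1 was at 314 CPM, Sema3d at 215 CPM and Plxnb2 at 116 CPM. Sema3f followed at 61.6 CPM, Sema5a at 57.8 CPM and Plxna2 at 43.5 CPM. Sema3c was at 26.3 CPM, Sema3e at 13.9 CPM and Sema3a at 0.341 CPM. Sema7a, a membrane-anchored ligand of Plxnc1 and integrins, was at 25.2 CPM, while smooth muscle-like cells of the same library had 1.05 CPM. Plxnd1 was at 35.0 CPM, Plxna1 at 30.8 CPM and Nrp2 at 29.4 CPM. Nrp1 did not differ with RFP in this class, at 330 and 329 CPM.

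The wider pathway was read from a list of 55 co-receptors, neuropilin-binding growth factors and intracellular effectors. In the arch pair 5 of 45 counted genes were past 2-fold higher in cKO and 3 lower, where 3.95% and 8.18% of all genes were. The genes furthest from 0 were Kdr, the main endothelial growth factor receptor (-2.36, at 2.10 CPM in control), the tyrosine kinase Fes (1.89), the GTPase Rnd1 (1.73, 13.0 against 3.92 CPM) and the growth factor Pgf (1.54, 11.3 against 3.89 CPM). In the descending pair none of 43 was past 2-fold, where 0.514% of all genes were higher and 0.851% lower, and the furthest was Vegfa at -0.80 (8.16 against 14.3 CPM). Between regions in control mice 1 of 46 was higher and 5 lower in the arch, where 3.47% and 3.86% of all genes were, led by Vegfd at -2.36 (4.45 against 22.9 CPM). In cKO mice 4 of 44 were higher and 4 lower, where 3.55% and 7.32% of all genes were, among them Rnd1 at 1.90 and Itga1, an integrin chain, at -1.60 (76.2 against 231 CPM). The medians of the list were -0.02, -0.04, -0.19 and -0.02, against -0.13, -0.03, -0.09 and -0.16 for all genes.

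Across the gated classes with at least 50 cells in a library, 31 of the 34 genes were at 20 CPM or more in a class considered or differed by 2-fold there. Plxna4os2, Plxna4os3 and Sema6c did not exceed 16.3 CPM in any class.

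**Figure D4:**
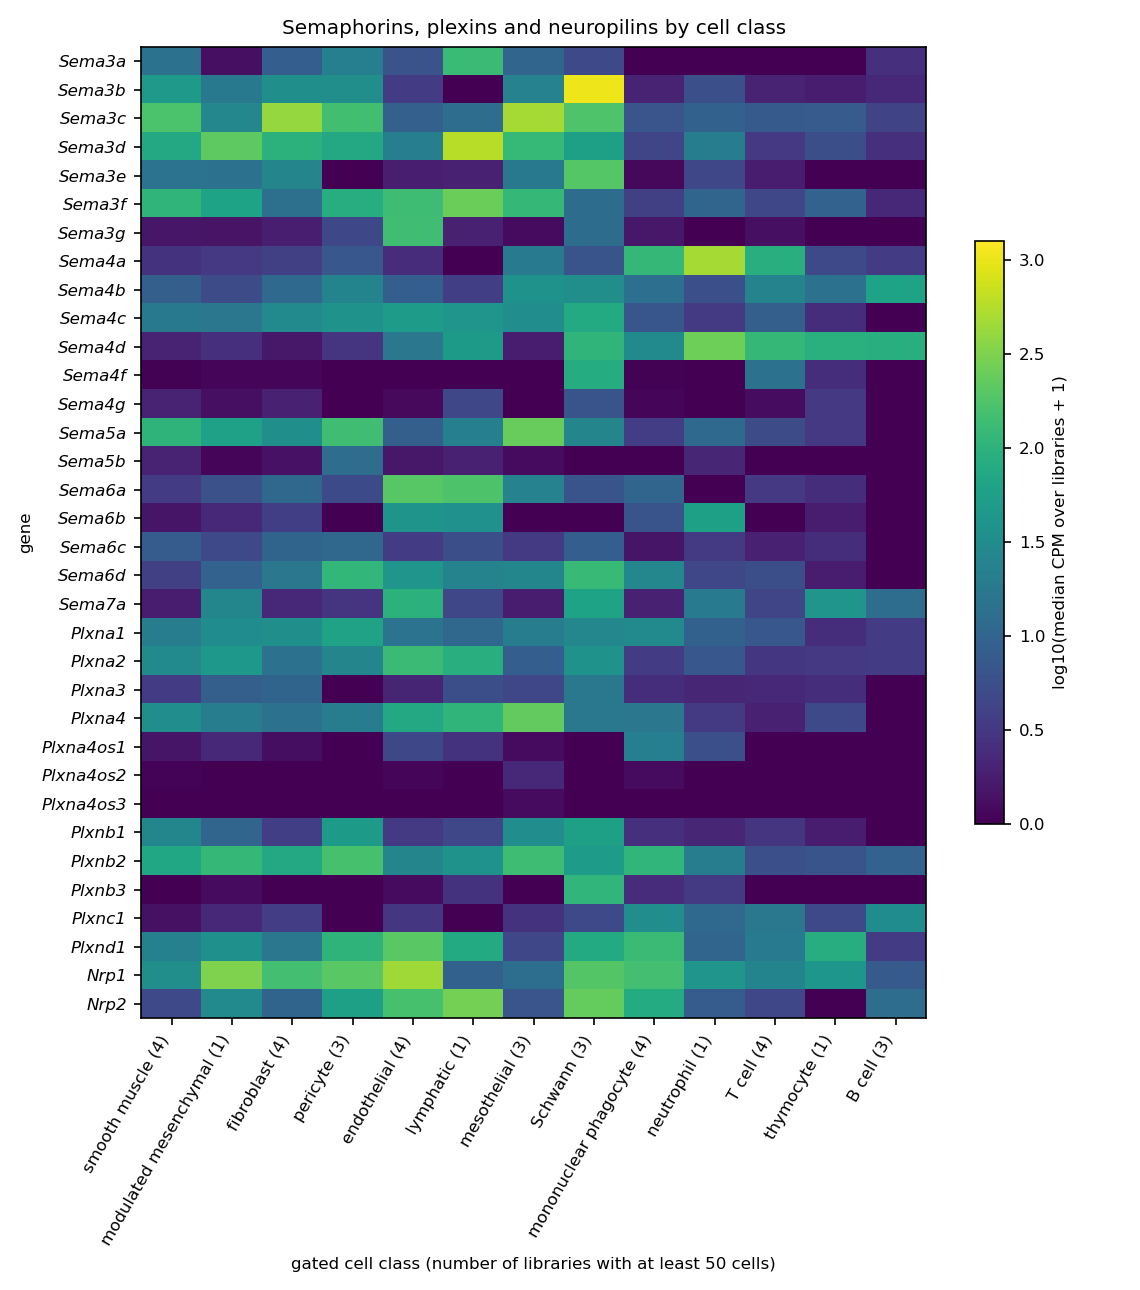
Median level over libraries of each gene in each gated class, as log10 of CPM plus 1, with the number of libraries that have at least 50 cells in brackets. Sema3b is brightest in Schwann-like cells, Sema3d in lymphatic-like cells, Sema4a in neutrophil-like cells and Nrp1 in endothelial-like cells.

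Fibroblast-like cells (315, 1800, 1240 and 989 cells) carried Sema3c as their leading ligand. Its level was 132, 318, 560 and 492 CPM, lowest in the cKO arch as in smooth muscle-like cells. Nrp1 was at 334, 134, 133 and 160 CPM, highest in the cKO arch. Sema3d was at 110, 93.7, 94.2 and 99.4 CPM, and Sema3e at 32.6, 15.6, 26.8 and 23.2 CPM. Sema3f was at 29.5, 18.6, 7.24 and 7.05 CPM, higher in both arch libraries, whereas Sema3a was at 1.92, 5.65, 11.3 and 9.44 CPM, lower in both. Plxnb2 was at 85.5, 60.5, 71.8 and 75.9 CPM and Plxna1 at 32.2, 23.5, 46.2 and 36.4 CPM. Sema3b, Sema4c and Sema5a stayed between 24.9 and 40.7 CPM in every library. In the arch pair 3 of 22 genes were past 2-fold higher in cKO (Nrp2 at 1.38, Nrp1 at 1.31 and Sema3e at 1.07), where 3.5% of all genes were. There 2 were lower (Sema3a at -1.43 from 5 and 87 UMIs, and Sema3c at -1.27), where 7.81% were. In the descending pair 0 of 22 were past 2-fold, where 0.627% were higher and 0.897% lower. Between regions in control mice Sema3f was higher in the arch (1.39) and Nrp2 (-1.28) and Sema4b (-1.23) lower, of 23 counted, where 4.35% and 2.97% of all genes were. In cKO mice Sema3f (2.03) and Nrp1 (1.33) were higher and Sema3a (-2.43) and Sema3c (-2.08) lower, of 20, where 4.28% and 7.71% were. With classes taken from clusters in place of gates, Nrp1 (0.92) and Sema3c (-0.996) were no longer past 2-fold in the arch pair, nor was Nrp1 (0.999) between regions in cKO mice.

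The fibroblast clusters differed in these ligands. Cluster 3, led by Mrgprg, Dact2 and Akr1c18, had Sema3e at 64.2, 48.4, 52.7 and 55.3 CPM and Sema3c at 321, 635, 1051 and 1070 CPM. Sema3e showed little difference between libraries there. Cluster 2, led by Hhip and Rbp4, had Sema3e at 25.9, 1.11, 4.46 and 2.00 CPM, with the cKO arch above the other libraries. Its Sema3c was at 60.3, 202, 115 and 112 CPM and its Nrp1 at 424, 136, 234 and 250 CPM. Cluster 6 was led by Spp1, Comp and Igfbp2 over cells of all classes and scored highest for modulated mesenchymal markers. Among fibroblast-like cells it was led by Saa3, Chl1 and Lrg1, and it held 97 cells (30.8%) of the class in the cKO arch. There Nrp1 was at 477 CPM and Sema3c at 33.5 CPM. In cluster 3 Nrp1 was at 164, 131, 67.5 and 105 CPM. The Nrp1 and Sema3c levels of the whole class in the cKO arch thus move in part with the share of cluster 6. Both genes also differed within clusters between the cKO and control arch. Nrp1 was at 424 against 136 CPM in cluster 2 and at 164 against 131 CPM in cluster 3. Sema3c was lower within clusters 2 (-1.72, -2.27 to -1.26) and 3 (-0.98, -1.17 to -0.80).

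Endothelial-like cells (165, 727, 1076 and 817 cells) carried both neuropilins, Plxnd1, Plxna2 and Plxna4 together with ligands of classes 3, 6 and 7. Nrp1 was at 531, 449, 406 and 448 CPM, Plxnd1 at 202, 157, 278 and 201 CPM, and Plxna2 at 190, 131, 128 and 102 CPM. Nrp2, which is best known from veins and lymphatics, was at 175, 64.5, 155 and 158 CPM, lowest in the control arch. Of the 184 Nrp2 UMIs in the cKO arch, 82 lay in 8 cells of the lymphatic cluster 26, and the other 157 cells were at 106.9 CPM. Plxna4 was at 77.1, 80.7, 70.9 and 40.1 CPM. Of the ligands, Sema3f was at 223, 185, 90.4 and 61.1 CPM, higher in both arch libraries. Sema3g, a ligand known from arterial endothelium, was at 115, 80.7, 170 and 166 CPM, lower in both. Sema6a, a membrane ligand of class A plexins, was at 176, 150, 212 and 249 CPM. Sema7a was at 76.2, 65.5, 152 and 121 CPM. Sema4c was at 59.97, 49.3, 41.7 and 53.5 CPM, Sema6d at 60.9, 44.0, 35.9 and 34.8 CPM and Sema6b at 38.1, 22.1, 39.8 and 43.8 CPM. Plxnb2 was at 35.2, 26.7, 23.2 and 21.2 CPM and Sema3d at 28.6, 19.6, 20.7 and 11.3 CPM. In the cells outside the lymphatic cluster 26, Sema3d was at 11.5, 7.03, 11.5 and 9.57 CPM. Sema3e did not exceed 2.20 CPM.

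Between regions in control endothelial-like cells, 4 of 19 genes were past 2-fold higher in the arch, where 5.94% of all genes were. They were Sema4d (1.90), Sema3f (1.60), Sema5a (1.22) and Plxna4 (1.01). There 2 were lower, Nrp2 (-1.29) and Sema3g (-1.04), where 4.76% were. In cKO mice Sema3a (4.37) and Sema3f (1.30) were higher of 19, where 3.31% were. Sema3c had 0 UMIs in the cKO arch and 50 in the cKO descending library, which is at least 2.96-fold lower with 3 UMIs as the floor in the library, where 7.49% were lower. Between genotypes in the arch Nrp2 (1.44) and Sema3a (3.03) were higher in cKO of 18, where 2.63% of all genes were higher and 6.75% lower. In the descending aorta Sema4d was the 1 gene of 19 past 2-fold higher, where 1.25% were, with 1.34% of all genes lower. It was at 19.5 against 6.45 CPM (1.57, 0.99 to 2.24). Within cluster 9, described below, which held 18.6% of the class in cKO and 13.6% in control, Sema4d was at 40.0 and 34.5 CPM. Cluster 27 had it at 37.5 and 14.4 CPM, from 27 and 4 UMIs, and 28 cKO cells of cluster 26 held 19 UMIs. The part of these shares in the ratio was not tested. The Sema3a and Nrp2 values of the cKO arch rest in part on few cells. Of its 64 Sema3a UMIs, 61 lay in 8 cells of cluster 26, the lymphatic cluster, and the other 157 cells had 3 UMIs (3.14 CPM). With classes from clusters Nrp2 was at 95.2 CPM in the cKO arch and no longer past 2-fold in the arch pair (0.71), and Sema3a had too few UMIs for a ratio in either comparison of the cKO arch. Plxna4 between regions in control mice was then at 0.86.

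Within endothelial clusters the receptors separated sharply. Cluster 9, led by Sfrp1, Cytl1 and Ecrg4, had Nrp2 at 3.33, 3.04, 3.12 and 4.32 CPM. Cluster 5, led by the capillary genes Car4, Gpihbp1 and Rgcc, had Nrp2 at 273, 167, 197 and 171 CPM. Cluster 27, led by Plac8, Adgrg6 and Ackr1, had it at 654, 388 and 450 CPM in the 3 libraries other than the cKO arch. Plxna4 ran the other way, at 110, 110, 162 and 151 CPM in cluster 9 and at 20.4, 19.2, 11.9 and 12.2 CPM in cluster 5. Sema3g was at 845, 839, 813 and 591 CPM in cluster 14, led by Nebl, and had 0 CPM in cluster 27. Sema7a was between 11 and 41.2 CPM in cluster 9 and between 150 and 259 CPM in cluster 5. Sema4d was at 20.0, 32.7, 40.0 and 34.5 CPM in cluster 9 and at most 4.07 CPM in cluster 5. In cluster 27 Sema4d was at 19.8 CPM in the control arch, 37.5 CPM in cKO descending and 14.4 CPM in control descending cells. Cluster 9 held 44.8, 51.9, 18.6 and 13.6% of the class and cluster 5 held 30.3, 24.5, 49.0 and 53.2%. Region levels of Nrp2, Plxna4, Sema4d, Sema3g and Sema7a over the whole class therefore move with these shares. Within cluster 9 several genes also differed by region. Sema3f was higher in the arch, at 257 and 258 CPM against 131 and 163 CPM. Sema3g was lower there, at 61.7 and 22.8 CPM against 98.0 and 142 CPM, as was Plxna4.

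**Figure D5:**
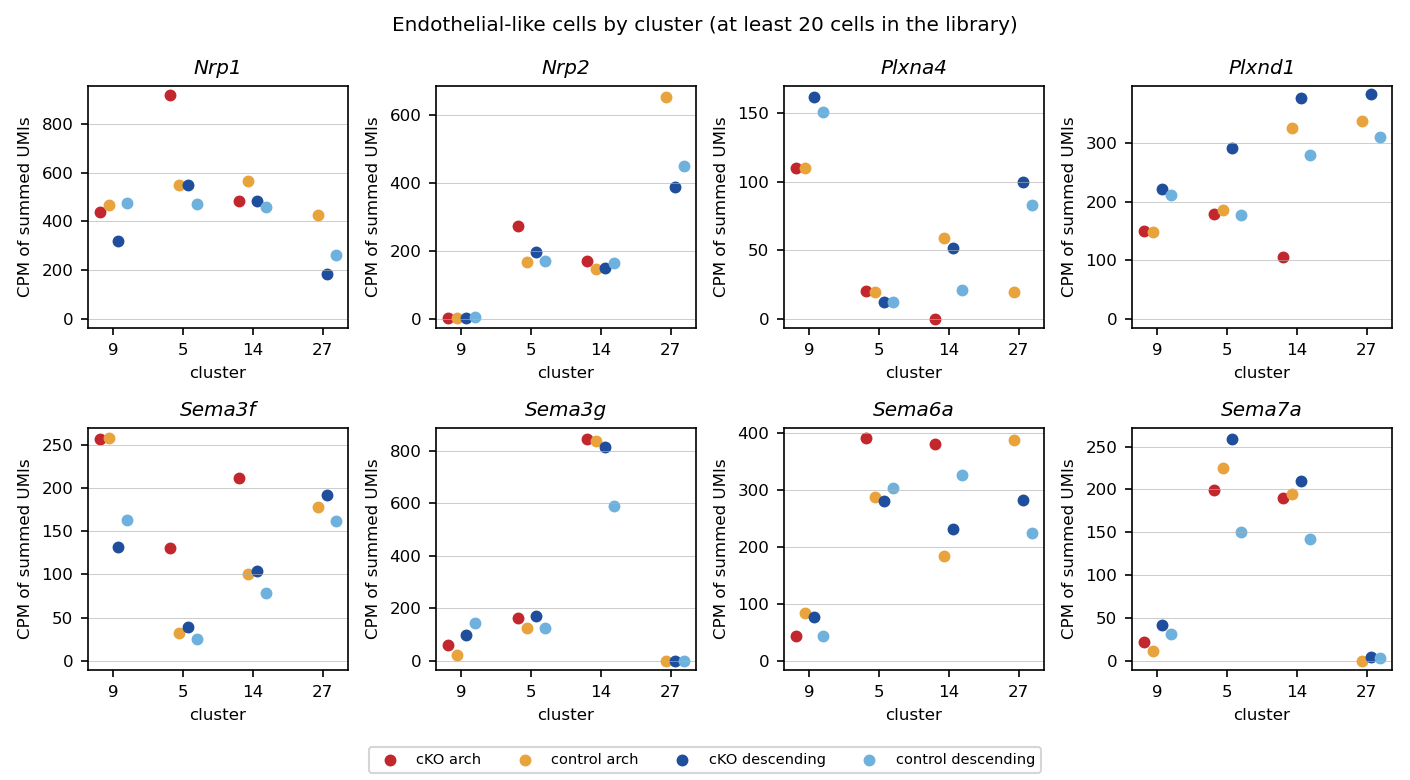
CPM of 8 genes in endothelial-like cells by cluster, 1 point for each library with at least 20 cells. Nrp2 is at 3.04 to 4.32 CPM in cluster 9 of all 4 libraries and at 167 to 273 CPM in cluster 5, and Sema3g reaches 591 to 845 CPM in cluster 14.

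Lymphatic-like cells reached 50 cells in the cKO descending library alone (80 cells). Sema3d was at 579 CPM, Nrp2 at 284 CPM, Sema3f at 254 CPM and Sema6a at 170 CPM. Sema3a was at 130 CPM and Plxna4 at 106 CPM, whereas Nrp1 was at 8.15 CPM. Plxna2 was at 87.0 CPM, Plxnd1 at 77.9 CPM and Sema4d at 48.0 CPM. The remaining genes above 20 CPM (Plxnb2, Sema4c, Sema5a, Sema6b and Sema6d) lay between 20.8 and 39.9 CPM.

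Mesothelial-like cells (310, 307 and 332 cells in the 3 libraries other than the cKO arch) held the highest Plxna4 of any class, at 261, 229 and 162 CPM. Sema3c was at 478, 476 and 325 CPM, Sema5a at 157, 238 and 247 CPM, Plxnb2 at 122, 149 and 137 CPM, and Sema3f at 116, 98.6 and 118 CPM. Sema3d was at 255, 118 and 96.9 CPM, highest in the arch. Plxnb1, Sema4c and Sema6d lay between 25.2 and 39.5 CPM, and Plxna1, Sema4a and Sema6a between 16.6 and 27.9 CPM. Nrp1 was at 41.8, 8.65 and 12.3 CPM, Sema4b at 17.9, 42.5 and 38.1 CPM and Sema3b at 14.5, 22.7 and 29.9 CPM. Sema3e, at 22.3, 17.0 and 7.95 CPM, was the 1 gene of 18 past 2-fold between the descending libraries, higher in cKO by 1.09 (0.48 to 1.74), where 0.908% of all genes were higher and 2.12% lower. Between regions in control mice 4 of 19 were higher in the arch (Nrp1 at 1.76, Sema3e at 1.48, Sema3d at 1.39 and Nrp2 at 1.35), where 2.15% were. There 3 were lower (Sema3a at -1.11, Sema4b at -1.08 and Sema3b at -1.03), where 3.72% were. With classes from clusters Sema3b was at -0.78. Sema3e was therefore higher in the arch in mesothelial-like cells and lower in the arch in smooth muscle-like cells of the same control libraries.

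The pericyte gate (99, 107 and 84 cells in the same 3 libraries) mixed 2 kinds of cells. Cells of cluster 25, led by Notch3, Myl7 and Steap4, were 31, 76 and 59 of them. In these Nrp1 was at 546, 287 and 329 CPM, Sema6d at 260, 172 and 201 CPM and Plxnd1 at 218, 115 and 165 CPM. Sema3c was at 13.7, 25.5 and 4.58 CPM in cluster 25 and at 807, 334 and 261 CPM in the other cells of the gate. Over the whole gate 18 genes reached 20 CPM, and the highest level of those not named here ran from 21.1 CPM (Sema5b) to 170 CPM (Plxnb2). Pericyte-like levels over the whole gate are therefore not compared between libraries.

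Schwann-like cells (52, 74 and 55 cells) held the most Sema3b of any class, at 896, 1047 and 1165 CPM. Sema3e was at 141, 192 and 188 CPM, above its level in smooth muscle-like cells of every library. Sema3c was at 190, 177 and 172 CPM. Nrp2 was at 152, 313 and 229 CPM and Nrp1 at 97.8, 203 and 184 CPM. Plxnb3, a receptor of Sema5a, was at 109, 124 and 94.1 CPM, and Sema4f at 81.5, 90.4 and 65.4 CPM, whereas both stayed under 1 CPM in endothelial-like, smooth muscle-like and fibroblast-like cells. Sema4d was at 65.2, 158 and 106 CPM. Of the other plexins, Plxnd1 was at 81.5, 60.3 and 77.7 CPM, Plxnb1 at 48.9, 56.5 and 65.4 CPM and Plxnb2 at 43.5, 86.7 and 49.1 CPM. Plxna1, Plxna2, Plxna3 and Plxna4 lay between 11.3 and 38.0 CPM. Of the other ligands, Sema4c was at 65.2, 86.7 and 77.7 CPM, Sema3d at 43.5, 82.9 and 57.3 CPM and Sema7a at 38.0, 67.8 and 61.3 CPM. Sema3f, Sema4a, Sema4b and Sema6a did not exceed 40.9 CPM. Of 8 genes with enough UMIs in the descending pair, Sema6d was lower in cKO, at -1.22 (-2.20 to -0.36, 16 against 35 UMIs), where 1.01% of all genes were lower and 0.641% higher.

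Mononuclear phagocyte-like cells (1199, 301, 448 and 495 cells) carried class 4 ligands. Sema4d was at 123, 18.4, 38.2 and 13.0 CPM, higher in the cKO library of both regions. Sema4a was at 79.8, 150, 128 and 102 CPM. Of the receptors, Nrp1 was at 158, 117, 145 and 148 CPM, Plxnb2 at 136, 91.7, 109 and 106 CPM, Plxnd1 at 114, 172, 145 and 108 CPM and Nrp2 at 64.5, 89.3, 87.6 and 70.6 CPM. Plxnc1, the receptor of Sema7a, was at 21.7, 31.7, 36.9 and 32.1 CPM. Sema6d was at 6.07, 27.8, 39 and 24.98 CPM. Plxna1 was at 31.8, 25.5, 31.0 and 20.4 CPM and Plxna4os1 at 15.3, 19.2, 22.6 and 31.3 CPM. In the arch pair Sema4d (2.72, 2.32 to 3.19) and Sema6b (1.18) were past 2-fold higher in cKO of 16, where 8.25% of all genes were. Sema6d (-2.19) and Sema4b (-1.26) were lower, where 9.61% were. In the descending pair Sema4d (1.55, 1.14 to 1.99) was the 1 of 14, where 1.14% were higher and 2.62% lower. With classes from clusters the arch pair had 3 of 21 genes higher and 8 lower, where 7.9% and 14.9% of all genes were. Clusters keep cells that the gates leave out as possible doublets, and the control arch class then had 394 cells, with Sema3c at 39.2 in place of 11.4 CPM.

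The Sema4d level moved with the makeup of that class. In cluster 7, led by Cd209f, Cd209g and Lyve1, it was at 13.7, 11.3, 14.4 and 9.16 CPM. In cluster 21, led by Lyz1 and Ear2, it was at 53.3, 30.8, 41.6 and 34.8 CPM. Cluster 13, led by Cxcl10 and Ccl5, held 52.6% of the class in the cKO arch and had 196 CPM. Cluster 43, led by Treml4, held 7.37% of the class in the cKO descending library and had 304 CPM. Nrp1 in cluster 7 was at 568, 167, 242 and 279 CPM, highest in the cKO arch.

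T cell-like cells (492, 194, 191 and 212 cells) carried Sema4d, also known as CD100, at 134, 104, 125 and 107 CPM and Sema4a at 79.3, 64.1, 104 and 93.8 CPM. Nrp1, a surface marker of some regulatory T cells, was at 152, 22.1, 21.1 and 26 CPM, highest in the cKO arch. The share of T cell-like cells with an Nrp1 UMI was 33.9, 13.4, 7.85 and 12.3%. Its cKO to control ratio in the arch was 2.76 (2.25 to 3.37). Sema6d was at 36.1, 2.14, 7.03 and 1.67 CPM, a ratio of 3.87 (2.47 to 6.39) from 71 and 3 UMIs. These were the 2 of 7 counted genes past 2-fold higher, where 6.6% of all genes were higher and 11.4% lower. In cluster 16, led by Penk and Il1r2, which held 74.2% of the class in cKO arch cells, Nrp1 was at 188, 24.6, 39.6 and 42.7 CPM. Plxnd1 was at 36.1, 26.4, 9.04 and 10.0 CPM and Sema4b at 24.9, 24.2, 22.1 and 14.2 CPM. With classes from clusters 2 of 13 genes were higher and 4 lower in the arch pair, where 4.85% and 15.0% of all genes were. The control arch class then had 243 cells, with Nrp1 at 35.9 CPM and Sema3c at 71.8 in place of 17.1 CPM.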

How the data were processed

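Cells of 4 mouse aorta libraries, 1 in each group, were read from deposited matrices of UMI counts per gene and cell barcode, restricted by the authors to called cells. Cell Ranger 6.1.1 and mm10 are named in the submitters' processing notes and 6.1.2 in the file headers. The annotation of the cKO arch file differs, so the 27734 shared identifiers were used. The 4 files hold 49407811, 98866674, 50922575 and 50285593 UMIs before cell filters, over all features, in the cKO and control arch and then the cKO and control descending library. No gene counted here shares a strand and position with a gene of the system.

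Cells with at least 500 genes and under 10% mitochondrial UMIs were kept. Classes came from marker panels, called "-like" from these markers only, with limits set after the data were seen. Cells that passed panels of more than 1 class or carried leukocyte markers outside leukocyte classes were left out as possible doublets, and no doublet caller was run. Summed UMIs were scaled to CPM, and 0.5 UMI was added to each sum for log2 ratios, which have exact conditional 95% intervals. Levels have exact Poisson and shares exact Clopper-Pearson intervals. Shares thinned to 3000 UMIs per cell are expectations over all draws. Clusters were made by the Leiden method (scanpy 1.11.5, leidenalg 0.10.2) without the genes of the system. The code ran in Python 3.11.15 with numpy 2.4.6, scipy 1.17.1 and pandas 2.3.3, and was tested on simulated counts.

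Levels were given for most genes at 20 CPM or more in a class (by range for some, and for most in the pericyte gate), or with at least 50 UMIs and a 2-fold difference, and for up to 4 pathway genes furthest from 0 in each comparison. A gene not named for a class is therefore not always below 20 CPM there. The genes, lists and markers were chosen with earlier results of these data known. Restriction to cluster 0, removal of 5 minor clusters and the split of control arch cells by Xist or Y-linked UMIs were added after the data were seen. Promoter windows are RefSeq, GRCm38.p6. The protein sequences were not used here.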

Additional observations from a re-analysis of the deposited data

Results flagged for a closer look

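For 4 of 22 genes counted in both pairs the counting intervals of the cKO to control ratio in smooth muscle-like cells lay on opposite sides of 0 in the 2 regions, where they did for 6.31% of all genes. With 1 library in each group the difference between regions was not tested. Nrp1 was at 1.03 (0.90 to 1.16) in the arch and -0.40 (-0.57 to -0.23) in the descending aorta. Nrp2 was at 0.81 (0.44 to 1.15) and -0.66 (-1.28 to -0.07), at levels of 7.10 CPM or less. Plxnb1 was at -0.26 (-0.48 to -0.06) and 0.22 (0.05 to 0.39). Sema3d was at -0.19 (-0.29 to -0.08) and 0.44 (0.33 to 0.56). Of these, only Nrp1 was past 2-fold, and in the arch alone.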

How the results depend on the processing

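No paired analysis was possible because each group has 1 library, and for the same reason no replicate could be left out. Counting is the limit that the intervals show, and differences between animals or libraries were not measured. Sema3a and Sema3e in smooth muscle-like cells kept their direction over the class under every alternative with at least 50 UMIs of the gene. The arch cKO to control ratio of Sema3a did not keep it within cluster 4, at -0.25 from 23 and 5 UMIs. The arch to descending ratio of Sema3a in control mice was -3.78 with equal weight for each cell and -3.64 in cluster 0, and in cKO mice it was -2.09 in cluster 0. The arch cKO to control ratio of Sema3e was 3.28 against the control cells with Xist UMIs and 1.71 against those with Y-linked UMIs. Its arch to descending ratio in control mice was -1.96 in cluster 0, -1.91 with Xist UMIs and -0.35 with Y-linked UMIs, the last no longer past 2-fold, and in cKO mice it was -0.75 in cluster 0. For arch against descending, Plxnb1 in cKO mice moved from -1.10 to 0.10 in cluster 0, where it was not resolved from counting error. In cluster 4 Plxnb1 was lower in the arch of cKO mice, at 15.9 against 26.3 CPM. Plxnd1 in control mice moved from -1.11 to -0.23 in cluster 0 and to -1.72 with Y-linked UMIs. Sema6a in the arch pair was at -0.73 with classes from clusters.

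The numbers of genes past 2-fold were 7, 1, 5 and 6 in the arch pair, the descending pair, between regions in control and between regions in cKO mice. In the arch pair they were 3 with thinned cells, 2 in cluster 0, 12 with no UMI minimum and 13 at 1.5-fold. In the descending pair they were 2 with equal weight for each cell, 5 with no minimum and 3 at 1.5-fold. Between regions in control mice they were 3 with thinned cells, in cluster 0 and without the 5 minor clusters, 8 with no minimum and 10 at 1.5-fold. In cKO mice they were 3 with thinned cells, 12 with no minimum and 11 at 1.5-fold. Thinned cells and single clusters leave fewer genes above 50 UMIs. Of the levels at 20 CPM or more, 340 of 365 stayed within 1.5-fold when classes came from clusters.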

Other observations

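Neutrophils and lymphocytes other than T cells carried class 4 semaphorins together with some other genes of the system. Neutrophil-like cells (402 in the cKO arch and at most 18 in any other library) had Sema4a at 475 CPM, Sema4d at 258 CPM, Sema6b at 57.5 CPM and Nrp1 at 39.9 CPM. Thymocyte-like cells, found in the control arch alone (221 cells), had Sema4d at 91.6 CPM, Plxnd1 at 85.5 CPM, Nrp1 at 42.0 CPM and Sema7a at 40.5 CPM. B cell-like cells were too few in the control arch. The cKO arch and the cKO and control descending libraries held 52, 113 and 128 of them, with Sema4d at 167, 68.4 and 88.4 CPM and Sema4b at 62.7, 93.4 and 52 CPM. Nrp2 was at 71.0, 11.7 and 10.4 CPM and Plxnc1 at 33.4, 21.7 and 31.2 CPM. Sema7a was at 25.1, 8.34 and 11.7 CPM and Nrp1 at 20.9, 5.00 and 6.50 CPM. With classes from clusters the cKO arch held 79 of them, with Sema4d at 88.8 CPM and Sema4b at 39.9 CPM. There Nrp2 was at 39.9 CPM, Plxnc1 at 21.7 CPM and Sema7a at 14.5 CPM.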
